A study of Homo sapiens with 7 samples.

Results

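The replication-dependent histone genes of chromosome 6 were examined for H3K4me1 in SW1990, an established line of human pancreatic cancer cells. Members were the protein-coding genes of GENCODE release 44 with a 5′ end in chr6:25700000-28000000 (hg38) whose symbol starts with H1-, H2AC, H2BC, H3C or H4C. This gave 55 genes of 20033 protein-coding genes in the annotation, namely 6 linker histone (H1), 12 H2A, 15 H2B, 10 H3 and 12 H4 genes. The same 2.3 Mb held 22 other protein-coding genes. Chromatin immunoprecipitation followed by sequencing was carried out for KMT2D, EBF2 and H3K4me1 in control cells (NC) and in KMT2D knockdown cells (KMT2D-KD). There was 1 library per antibody and condition, plus 1 input library for which the labels give no condition, so every difference below is between 2 libraries and has no replicate check. The sample titles do not name the knockdown reagent or say whether it was carried stably. The level of KMT2D in the KMT2D-KD cells was not measured here.

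Histone proteins package DNA into nucleosomes, and cells need them in bulk when the genome is copied. Most copies of the core histone genes H2A, H2B, H3 and H4, and most linker H1 genes, sit in clusters, the largest of them on the short arm of chromosome 6. They are transcribed mainly in S phase, have few introns, and their mRNAs end in a conserved stem-loop in place of a poly(A) tail. H3K4me1, monomethylated lysine 4 of histone H3, marks enhancers and the flanks of active promoters, while the start site itself more often carries trimethylated lysine 4. KMT2D is one of the enzymes that deposit H3K4me1, and EBF2 is a transcription factor.

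The members fell into 3 sub-clusters, separated wherever neighbouring 5′ ends lay more than 500 kb apart and extended by 10 kb at both ends. Sub-cluster 1, chr6:25716562-26295638, held 34 genes. Sub-cluster 2, chr6:27122795-27157106, held 5 genes, and sub-cluster 3, chr6:27797929-27903425, held 16. The gene records had a median length of 495 bases and 44 of 55 were under 1 kb, while the longest, that of H2BC4, ran over 37610 bases. Across the cluster, 12 pairs of genes on opposite strands had 5′ ends within 1 kb of each other, for example H2AC7 and H2BC7 with 223 bases between them, so that members of a pair share most of their flanking sequence and are not independent.

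The sequence features that the members share were read first, since they show what kind of gene is described. The stem-loop was searched on the gene's strand as a stem of 6 bases opening with GG, a loop of 4 bases opening with TT, and the exact reverse complement of the stem. It was found in 50 of 55 members, in all 6 H1, 10 of 12 H2A, 14 of 15 H2B, 9 of 10 H3 and 11 of 12 H4 genes. No such match lay in H3C6, H2BC10, H2AC11, H2AC15 or H4C13. The 4 forms are shown as DNA, with the stem in capitals and the loop in lower case, each from the first member under 1 kb in chromosome order that carries it.
H2BC1, chr6:25727325-25727340, plus strand: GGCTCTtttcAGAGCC
H1-1, chr6:26017037-26017052, minus strand: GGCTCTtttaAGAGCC
H4C1, chr6:26022030-26022045, plus strand: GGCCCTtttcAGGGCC
H4C9, chr6:27139654-27139669, plus strand: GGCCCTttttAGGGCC
The first form was found in 31 members of the H1, H2A, H2B and H3 families and the second in 8 members of H1, H2B and H3. The third was found in 9 members and the fourth in 2, all of them H4 genes, so the forms with a GGCCCT stem occurred among the members in H4 alone.

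Promoters were read from RefSeq sequences (GRCh38.p14), which matched 50 of 55 members. H4C1, H4C3, H2AC12, H3C11 and H3C12 were not matched. In the 250 bases before the start, a TATA sequence (TATAAA or TATATA, either strand) was present in 39 of 50 members (78.0%) against 12.8% of all 35116 promoters of the table. The CCAAT box, bound by NF-Y, was present on either strand in 43 (86.0%) against 32%. The octamer ATGCAAAT, the recognition sequence of POU2F1, was present on either strand in 21 (42.0%) against 1.63%. By family, the octamer was found in 9 of 11 H2A and 12 of 15 H2B promoters and in none of the H1, H3 or H4 promoters, while CCAAT was found in all H1, H2A, H2B and H3 promoters and in 3 of 10 H4 promoters. Part of the H2A and H2B counts comes from divergent pairs, whose windows overlap on the same bases. The 150 bases before the start are shown for 5 members that had H3K4me1 nearby, 5′ to 3′ on the strand of the gene, with TATA, CCAAT and octamer matches of either strand in capitals.
H4C2, chr6:26027284-26027433, minus strand: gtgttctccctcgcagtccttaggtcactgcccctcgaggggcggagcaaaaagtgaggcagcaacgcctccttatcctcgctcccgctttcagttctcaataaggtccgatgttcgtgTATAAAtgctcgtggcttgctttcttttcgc
H3C3, chr6:26045234-26045383, plus strand: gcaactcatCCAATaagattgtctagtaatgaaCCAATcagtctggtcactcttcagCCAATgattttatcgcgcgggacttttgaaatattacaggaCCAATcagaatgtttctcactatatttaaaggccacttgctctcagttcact
H1-6, chr6:26108136-26108285, minus strand: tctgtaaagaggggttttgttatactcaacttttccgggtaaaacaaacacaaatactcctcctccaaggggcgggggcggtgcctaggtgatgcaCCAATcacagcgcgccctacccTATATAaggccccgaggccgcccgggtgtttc
H2BC7, chr6:26199366-26199515, plus strand: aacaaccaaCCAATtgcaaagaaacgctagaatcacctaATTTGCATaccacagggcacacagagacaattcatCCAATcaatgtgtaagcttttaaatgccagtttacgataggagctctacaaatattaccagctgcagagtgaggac
H2BC17, chr6:27893275-27893424, plus strand: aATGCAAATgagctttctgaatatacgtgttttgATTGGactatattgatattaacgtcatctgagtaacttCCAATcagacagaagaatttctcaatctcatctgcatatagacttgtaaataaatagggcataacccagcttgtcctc
H4C2 and H1-6 carried a TATA match close to the start, H3C3 carried 4 CCAAT boxes, and the H2B promoters combined CCAAT with the octamer. A match describes the letters of the window and does not show that a factor was bound.

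For the values below, an interval is a stretch that the authors' peak caller, MACS2, reported as enriched over the input. Fold enrichment is the ratio of ChIP signal to local background at its summit, with the same constant added to both. The H3K4me1 list of NC held 64843 intervals and that of KMT2D-KD 92135, from libraries with recovered depths of 9.89 and 9.29 fragments per kb. As a check of the labelled cell line, the epithelial keratin genes KRT8, KRT18, KRT19 and KRT7 had H3K4me1 within 2 kb of the 5′ end in both lists and EPCAM in KMT2D-KD alone, while CDH1 and MUC1 had none in either. None of 4 leukocyte genes and none of 3 hepatocyte genes had such an interval in either list.

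Few histone genes had H3K4me1 close to their 5′ ends. In NC, 6 of 55 members (10.9%, exact 95% interval 4.11% to 22.2%) had an interval within 2 kb of the 5′ end, against 17.7% of all protein-coding genes. In KMT2D-KD, 11 of 55 (20%, 10.4% to 33.0%) had one, against 28.4% of all protein-coding genes. Both background shares lay inside the counting intervals of the members. An interval was present in both lists at 3 members (H4C2, H4C3 and H1-6), where the background share was 14.3%. It was present in NC alone at 3 members (H2BC3, H3C3 and H4C5), against a background of 3.39%. In KMT2D-KD alone it was present at 8 members (H2AC4, H2BC6, H2AC7, H2BC7, H3C10, H3C12, H2AC17 and H2BC17), against a background of 14.2%. The remaining 41 members had none in either list. Counting errors here take members as independent, although the 11 members in KMT2D-KD represented only 8 distinct sites once divergent pairs were counted once. The intervals lay beside the 5′ ends and never on them. In NC 4 were nearest on the upstream side and 2 on the downstream side, in KMT2D-KD 7 and 4.

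**Figure D1:**
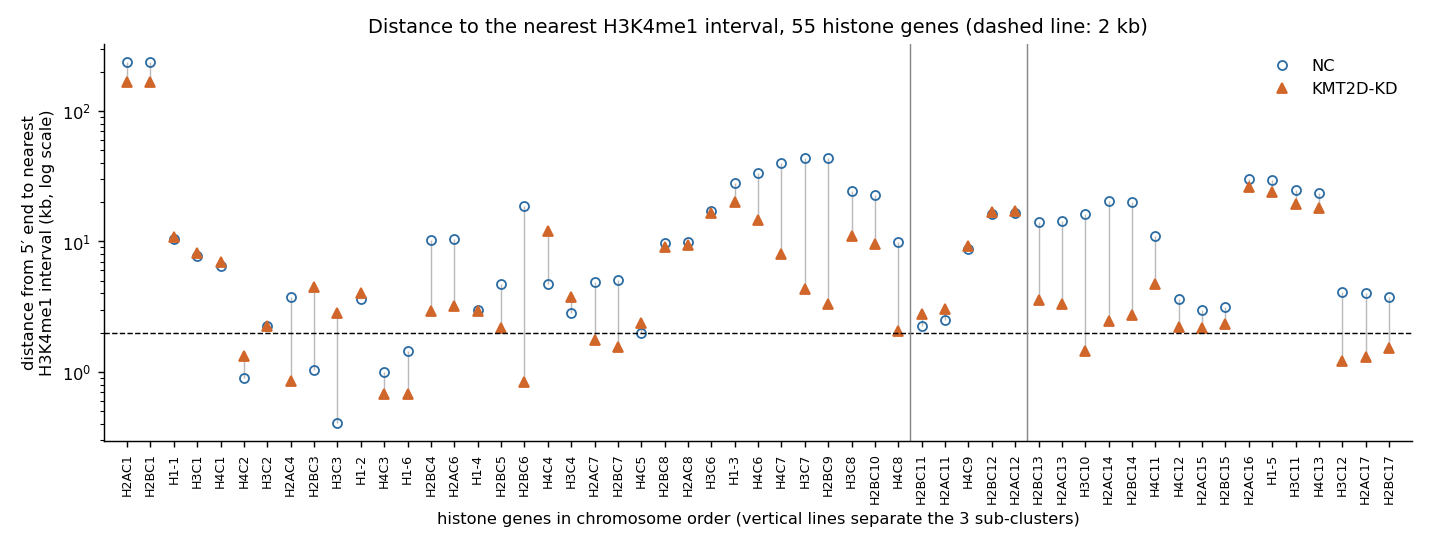
Distance in kb (log scale) from the 5′ end of each of the 55 histone genes, in chromosome order, to the nearest H3K4me1 interval in NC (open circles) and KMT2D-KD (triangles), with grey lines joining the values of a gene and a dashed line at 2 kb. In NC 6 genes lie below the line and in KMT2D-KD 11, and in the right-hand sub-cluster each triangle lies below its circle.

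H4C2 encodes core histone H4. In NC its nearest interval, chr6:26028177-26028759, was 894 bases upstream, with 5.61-fold enrichment and a −log10 q of 6.33. The KMT2D-KD interval nearest to it, chr6:26028613-26029840, was 1330 bases upstream, with 5.69-fold enrichment and a −log10 q of 6.59. The summits held 15 fragments over a background of 1.85 in NC and 14 over 1.64 in KMT2D-KD. The values at H4C2 were therefore close in both libraries, although their summits lay at different bases. The stretch was intergenic, which here means outside every protein-coding gene record. It was the strongest interval near a member in NC, level with 3 other intervals of the region.

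H4C3, another H4 gene, had the strongest interval near any member in KMT2D-KD. This interval, chr6:26102622-26103256, was 677 bases upstream, with 6.44-fold enrichment and a −log10 q of 8.32. In NC the interval chr6:26102616-26102934 was 999 bases upstream, with 3.83-fold enrichment and a −log10 q of 4.17. The number of fragments at the summit was about the same, 17 against 16 in KMT2D-KD, while the local background was 3.70 in NC but 1.64 in KMT2D-KD, the genome-wide mean of that list. The higher enrichment listed in KMT2D-KD at H4C3 thus came with a lower background value and not with a higher raw number of fragments. Fragment numbers were not scaled for depth, and the genome-wide mean was 1.85 in NC. The summits lay at different bases, 26102710 in NC and 26103024 in KMT2D-KD, so these values were not read at the same position. Both lists were called against the same input library, so a difference in background between the conditions at a given position could not be measured. Both intervals lay in an intron of the long H2BC4 record on the opposite strand.

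H1-6 encodes a testis-type linker histone. It had 2 intervals within 2 kb in each list, on either side of the gene. On the downstream side the NC interval, chr6:26106304-26106689, was 1446 bases away with a fold enrichment of 3.46, and the KMT2D-KD interval, chr6:26106179-26106553, was 1582 bases away with a fold enrichment of 4.38. On the upstream side the NC interval, chr6:26109880-26110242, was 1745 bases away with a fold enrichment of 3.89, and the KMT2D-KD interval, chr6:26108819-26109703, was 684 bases away with a fold enrichment of 3.92. The downstream intervals overlapped each other and the upstream ones did not. All 4 held 11 or 12 fragments at the summit.

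The bases covered in both lists near these 3 genes are shown on the plus strand of hg38, to let the flanks be set beside the promoters above. The CG dinucleotide would be in capitals, and none of the 3 stretches held one. Their GC contents were 38.1%, 38.7% and 31.6%. The 250 bases before the members' starts held a median of 8.5 CG dinucleotides (3 to 19) and those of all promoters 11. The GC content of the promoters and the CG number of flanks without an interval were not counted. For H4C3 the middle 300 of 313 shared bases are given.
H4C2, chr6:26028613-26028759: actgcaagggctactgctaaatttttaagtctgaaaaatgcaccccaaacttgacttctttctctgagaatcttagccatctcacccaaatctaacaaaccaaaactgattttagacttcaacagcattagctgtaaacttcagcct
H4C3, chr6:26102628-26102927: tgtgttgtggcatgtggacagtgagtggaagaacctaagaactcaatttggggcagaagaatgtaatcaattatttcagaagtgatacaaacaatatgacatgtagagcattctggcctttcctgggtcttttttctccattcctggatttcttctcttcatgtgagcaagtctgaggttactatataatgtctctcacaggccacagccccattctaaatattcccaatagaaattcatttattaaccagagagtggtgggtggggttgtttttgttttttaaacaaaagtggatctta
H1-6, chr6:26106304-26106553: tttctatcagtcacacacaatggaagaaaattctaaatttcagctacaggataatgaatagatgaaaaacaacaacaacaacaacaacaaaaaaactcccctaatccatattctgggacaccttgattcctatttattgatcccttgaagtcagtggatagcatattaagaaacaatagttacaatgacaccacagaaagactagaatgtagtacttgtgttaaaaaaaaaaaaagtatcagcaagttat

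**Figure D2:**
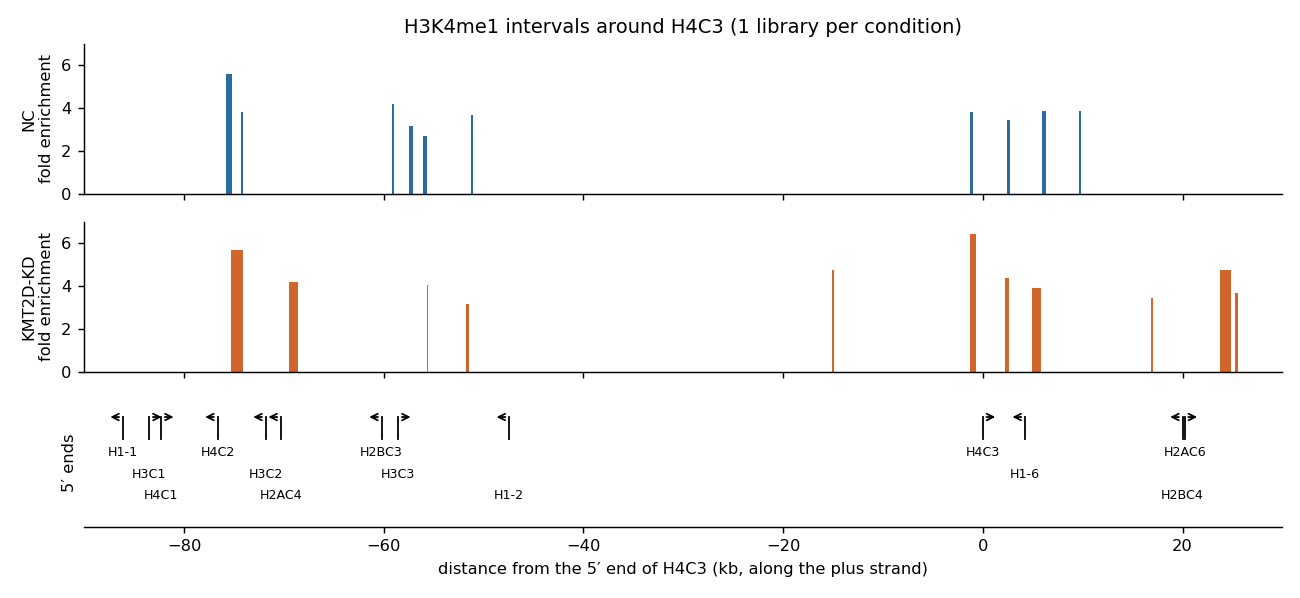
Map of H3K4me1 intervals from 90 kb before to 30 kb after the 5′ end of H4C3 in kb along the plus strand, with bar height giving fold enrichment in NC (upper panel) and KMT2D-KD (middle panel) and flags marking the 5′ ends and directions of the histone genes (lower panel). Intervals at H4C2, H4C3 and H1-6 appear in both panels, and the one at H4C3 reaches 6.44 in KMT2D-KD against 3.83 in NC.

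The members with an interval in NC alone lay in sub-cluster 1. H2BC3 and H3C3, an H2B and an H3 gene, shared the NC interval chr6:26044750-26044976 between them, 1037 and 408 bases from their 5′ ends, with 4.21-fold enrichment and a −log10 q of 3.49. H3C3 also had a second, weaker NC interval 1048 bases downstream, with 3.17-fold enrichment and a −log10 q of 2.02. KMT2D-KD intervals were no nearer than 4504 bases to H2BC3 and 2833 bases to H3C3. At the H4 gene H4C5 the NC interval, with a fold enrichment of 3.86, was 1996 bases away, just inside the window, and the KMT2D-KD interval was 2376 bases away, just outside it. Placement of the 2 kb limit therefore decided the difference at H4C5.

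Among the members with an interval in KMT2D-KD alone, H2AC4, an H2A gene, had one 856 bases upstream, chr6:26034474-26035306, with a fold enrichment of 4.17, and its nearest NC interval was 3779 bases away. H2AC7 and H2BC7 shared an intergenic KMT2D-KD interval, chr6:26201062-26201277, at 1769 and 1546 bases, with a fold enrichment of 3.79 and 9 fragments, the fewest near any member. Their nearest NC interval was 4857 and 5080 bases away. H2BC6 had 2 KMT2D-KD intervals at 841 and 1641 bases, with fold enrichments of 4.93 and 4.55, while the nearest NC interval was 18696 bases away. The H2BC6 gene record starts 11702 bases before its canonical transcript, so these intervals, inside the H2BC5 record, lay beside the start of the record and not beside that of the canonical transcript. In sub-cluster 3, the H3 gene H3C10 had a KMT2D-KD interval 1453 bases downstream, with a fold enrichment of 3.32, and none in NC within 16307 bases. H3C12, H2AC17 and H2BC17 shared the KMT2D-KD interval chr6:27891691-27891892 at 1214, 1293 and 1533 bases, with 4.38-fold enrichment and a −log10 q of 4.02. Their nearest NC interval, chr6:27897192-27897951, was 4086, 4007 and 3767 bases away and was stronger, with a fold enrichment of 5.61. That stretch also had a KMT2D-KD interval, with a fold enrichment of 4.74, so H3K4me1 was listed beyond the 2 kb limit of these 3 genes in both libraries. The H3C12 gene record starts 2280 bases before its canonical transcript. The KMT2D-KD interval chr6:27891691-27891892 lay 865 bases upstream of the start of that transcript.

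A wider window gave another picture than the 2 kb one. Within 5 kb, 22 of 55 members (40%, 27.0% to 54.1%) had an interval in NC against 30.2% of all protein-coding genes, and 34 of 55 (61.8%, 47.7% to 74.6%) had one in KMT2D-KD against 42.9%. The members' share in KMT2D-KD thus lay above the background by more than counting error, and the share in NC did not. Neighbouring genes shared these intervals, however, as the nearest ones numbered 12 for the 22 members and 20 for the 34, so the counting intervals are too narrow. The median distance to the nearest interval was 9960 bases in NC against 3340 bases in KMT2D-KD, and over all protein-coding genes it was 20400 and 8830 bases. Members just outside the 2 kb window were H2BC11 at 2248 bases and H3C2 at 2260 bases in NC, and H4C8 at 2067, H2AC15 at 2157, H2BC5 at 2158, H4C12 at 2218 and H3C2 at 2259 bases in KMT2D-KD. The nearest interval was closer in KMT2D-KD than in NC for 40 of 55 members and closer in NC for 15, and over all protein-coding genes it was closer in KMT2D-KD for 14207 of 20033, a similar share.

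Coverage by distance showed the same arrangement. Within 1 kb of a member's 5′ end, 0.390% of bases were covered in NC and 1.10% in KMT2D-KD, compared with 1.08% and 2.11% around all protein-coding genes. From 1 to 2 kb the members' values, 2.77% and 5.60%, were near those of all genes, 2.79% and 5.12%. Between 2 and 5 kb they were 2.87% in NC against 2.39% for all genes, and 6.49% in KMT2D-KD against 4.0%. From 5 to 10 kb they were 0.210% and 1.13%, against 1.5% and 2.45%. These shares rest on few intervals, since the covered bases within 1 kb summed to 0.336 kb (NC) and 0.946 kb (KMT2D-KD).

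**Figure D3:**
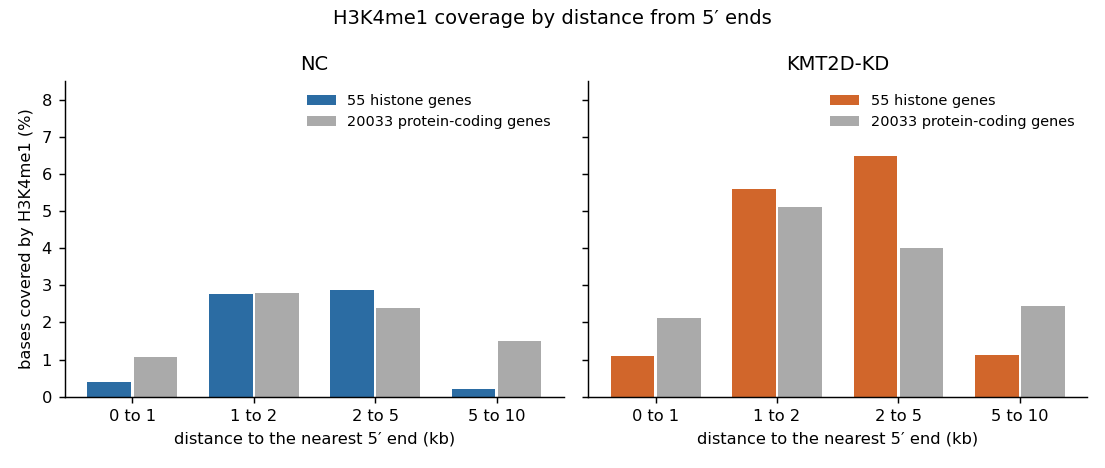
Percent of bases covered by H3K4me1 intervals in rings of 0 to 1, 1 to 2, 2 to 5 and 5 to 10 kb around the nearest 5′ end, for the 55 histone genes (coloured bars) and all 20033 protein-coding genes (grey bars) in NC (left) and KMT2D-KD (right). Histone genes are highest from 2 to 5 kb, at 2.87% in NC and 6.49% in KMT2D-KD, and lie below all genes within 1 kb and beyond 5 kb in both panels.

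In bins of 500 bases along the strand of each gene, no member had an interval in the first 1000 bases downstream of the 5′ end in NC, or from 500 bases upstream to 1000 bases downstream in KMT2D-KD. All protein-coding genes had their lowest values in the first 500 bases too, 1.24% in NC and 2.11% in KMT2D-KD. In KMT2D-KD the members were highest between 2000 and 2500 bases and between 3000 and 3500 bases downstream, with 10 members (18.2%) in each bin against 13.9% and 10.3% of all genes. The gap to all genes was wider upstream. There each bin between 5000 and 3500 bases before the 5′ end held 9 members (16.4%), against 4.90% to 5.29% of all genes. Because most of these genes are under 1 kb long, the downstream bins lay past the end of the gene. In NC no bin exceeded 5 members (9.09%).

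**Figure D4:**
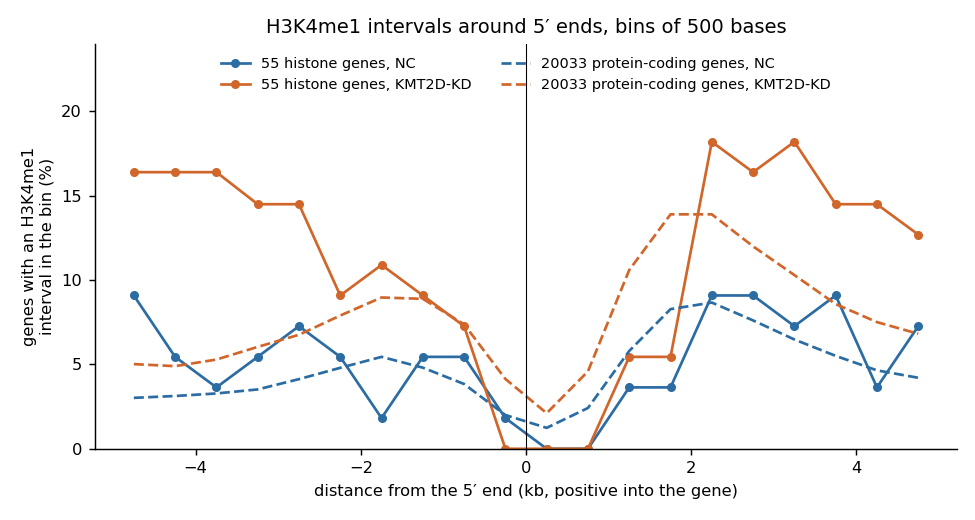
Percent of genes with an H3K4me1 interval in each 500-base bin from 5 kb before to 5 kb after the 5′ end, along the strand of the gene, for 55 histone genes (solid lines with points) and all 20033 protein-coding genes (dashed lines) in NC and KMT2D-KD. The solid lines reach 0 beside the 5′ end in both conditions, and the KMT2D-KD line of the histone genes reaches 18.2% downstream and 16.4% upstream.

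The families differed little in number. Within 2 kb, H1 genes had 1 of 6 in both conditions and H2A genes 0 of 12 in NC and 3 in KMT2D-KD. H2B genes had 1 of 15 in NC and 3 in KMT2D-KD, H3 genes 1 of 10 and 2, and H4 genes 3 of 12 and 2. H2A genes (exact interval of the NC share 0% to 26.5%, of the KMT2D-KD share 5.49% to 57.2%) and all other families had overlapping intervals between conditions.

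By sub-cluster the values were more uneven. In sub-cluster 1, 6 of 34 genes (17.6%) had an interval within 2 kb in NC, 7 (20.6%) in KMT2D-KD, and the nearest interval was closer in KMT2D-KD for 24 of 34 genes. In sub-cluster 2 none of the 5 genes had one in either list, and the nearest interval was closer in NC for all 5, measured in each list to 1 and the same interval within an intron of H2BC11. In sub-cluster 3, 0 of 16 genes (0% to 20.6%) had one in NC and 4 (25%, 7.27% to 52.4%) in KMT2D-KD. The nearest interval was closer in KMT2D-KD for 16 of 16 genes of sub-cluster 3, with a median distance of 2600 bases against 14300 bases in NC. The longer KMT2D-KD list was also closer for 14207 of all 20033 protein-coding genes, with medians of 8830 and 20400 bases, and the all-gene shares within 2 kb, 17.7% and 28.4%, lay inside the counting intervals of sub-cluster 3. The 16 genes shared their nearest intervals with their neighbours, as sub-cluster 3 held 2 NC and 9 KMT2D-KD intervals. The log2 ratio of these numbers was 2.17, with a counting interval of −0.10 to 5.42. The strongest of the 9, chr6:27897143-27897733, had 4.74-fold enrichment over background.

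Some members lay far from H3K4me1 in both lists. The testis-type pair H2AC1 and H2BC1, at the near end of the region, were 237373 and 237158 bases from an interval in NC and 167863 and 168078 bases in KMT2D-KD. Next came H2AC16 at 29930 and 26374 bases, the linker histone gene H1-5 at 29604 and 24103 bases, and the linker histone gene H1-3 at 28046 and 19964 bases, in NC and KMT2D-KD respectively. Distances over 10 kb were found for 26 of 55 members (47.3%) in NC and 14 (25.5%) in KMT2D-KD, against 61.5% and 48.3% of all protein-coding genes.

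Over the whole 2.3 Mb, NC had 34 intervals listed and KMT2D-KD 60. The log2 ratio KMT2D-KD / NC was 0.82 (counting interval 0.19 to 1.47), and this interval included the ratios for chromosome 6, 0.61 (0.55 to 0.67), and for the genome, 0.51 (0.49 to 0.52). The difference in number across the histone genes was thus not distinguishable from that of the whole lists. H3K4me1 covered 0.535% of the region in NC and 1.10% in KMT2D-KD, less than the 1.05% and 1.61% of the genome. Within the 3 sub-clusters coverage was higher, 1.03% in NC and 2.52% in KMT2D-KD, and in the rest of the region it was 0.312% and 0.456%. Per Mb, the sub-clusters had 29.2 NC and 57.0 KMT2D-KD intervals, against 21 and 29.8 in the genome.

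The highest −log10 q in the region was 6.33 in NC, above 84.4% of that list, and 8.32 with the knockdown, above 87.7% of that list. A −log10 q of at least 5 was reached by 4 of 34 intervals (11.8%, 3.30% to 27.5%) in NC against 25.3% of the list, and by 7 of 60 (11.7%, 4.82% to 22.6%) in KMT2D-KD against 32.4%. In KMT2D-KD, the intervals ranked 8 to 15 in the region were level at 4.97, a value above 63.9% of that list. The KMT2D-KD share thus depended on where this limit was placed. Summits held 8 to 17 fragments in NC and 7 to 16 in KMT2D-KD, so that a few fragments decided whether a stretch was listed. Besides H4C2, the strongest in NC were in an intron of TRIM38 46452 bases from H1-1, intergenic 51223 bases from H4C8, and intergenic 3767 bases from H2BC17, all with a −log10 q of 6.33, followed by 2 of 4.86, located 18225 bases from H4C8 and 93772 bases from H2BC17. In KMT2D-KD they were at H4C3, 51059 bases from H4C8 (8.32), at H4C2, 49798 bases from H4C8 (6.59), and, level at 6.32, in an intron of H4C8 2645 bases from its 5′ end and in an intron of POM121L2 148711 bases from H2AC12. The fold enrichments of the intervals nearest to members within 2 kb, with medians of 4.03 in NC and 4.38 in KMT2D-KD, were near those of all genes with such an interval, 4.04 and 4.17.

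Placement was compared between the lists. Of the 34 NC intervals of the region, 18 (52.9%, 35.1% to 70.2%) overlapped a KMT2D-KD interval, and of the 60 KMT2D-KD intervals 18 (30%, 18.8% to 43.2%) overlapped an NC interval. Over the whole lists these shares were 69.7% and 46.6%, inside the counting interval of the region in NC and above it in KMT2D-KD. Placement used protein-coding genes alone. In NC 3 intervals touched an exon, 13 lay in introns and 18 were intergenic, and in KMT2D-KD these numbers were 4, 25 and 31. Some of the intergenic intervals lay within gene records of other types, such as long non-coding RNA genes. A histone gene record was overlapped by 7 NC and 18 KMT2D-KD intervals, all but 1 of them in introns of long records such as H2BC4, H2AC6, H2BC5, H2BC11 and H4C8.

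KMT2D and EBF2 themselves had no interval in the region in either condition. The nearest KMT2D interval lay 14400 kb from H2BC17 in NC and in KMT2D-KD. It was nearly the same stretch in both lists, with fold enrichments of 617.27 in NC and 923.89 in KMT2D-KD. The medians of these lists were 7.61 and 9.37. The nearest EBF2 interval lay 2110 kb from H2AC1 in NC and 4040 kb from H2BC17 in KMT2D-KD. These 4 lists held only 238 to 318 intervals each, so weak occupancy of histone genes by either protein was not detectable from them.

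Near-identical copies can lose reads in alignment, and the members are a multigene family. The share of 32-base words within 2 kb of the 5′ end that occur more than once in hg38 had a median of 9.29% over the members (0% to 24.5%), compared with 6.23% over 998 protein-coding genes taken at regular steps. It was 8.01% for the 14 members with an interval in either list and 10.5% for the 41 without. Within 500 bases of the 5′ end, where no member had a KMT2D-KD interval, the median was 5.60% and the highest value 49.4%, compared with a median of 0% over the 998 genes. The part of repeated sequence in the low values beside the 5′ ends was not tested.

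Related genes elsewhere gave the following values. For comparison, 17.7% of all protein-coding genes had an interval within 2 kb in NC and 28.4% in KMT2D-KD. The 22 other protein-coding genes of the region had one at 3 genes in NC (13.6%) and 6 in KMT2D-KD (27.3%). An unnamed gene record among the 6 starts at the same base as H2AC7 and was counted through the interval of H2AC7, so this set is not fully separate from the members. The 13 replication-dependent histone genes of chromosome 1 had one at 3 genes in NC (23.1%, H2AC18, H2AC21 and H2AC25) and 1 in KMT2D-KD (7.69%, H2AC21). The nearest interval was closer in NC for 12 of 13. Their windows held a median of 68.8% repeated words, so intervals there are uncertain. Of 11 variant histone genes, which are expressed outside S phase as well, 2 had one in NC (18.2%) and 4 in KMT2D-KD (36.4%). H2AX, whose product is phosphorylated at DNA breaks, had intervals 405 (NC) and 593 bases (KMT2D-KD) away, H3-3B, an H3.3 gene, had one over its 5′ end in both lists, and the centromeric H3 gene CENPA and H2AJ had one in KMT2D-KD alone. H2AX and H3-3B thus had H3K4me1 closer to the 5′ end than any of the 55 members in the same list. For H2AX the margin was small, at 405 bases against 408 for H3C3 in NC and 593 against 677 for H4C3 in KMT2D-KD.

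Genes whose products transcribe or process histone mRNA formed a list of 21. Of these, 4 (19%) had an interval within 2 kb in NC and 13 (61.9%, 38.4% to 81.9%) in KMT2D-KD, against 17.7% and 28.4% of all protein-coding genes. The nearest KMT2D-KD intervals of the 13 genes had a −log10 q from 1.34 at ZNF473 and 1.48 at CPSF3 to 7.14 at CPSF1. These genes were not counted again with interval lists of equal length. The 9 genes with one in KMT2D-KD alone stand against a background of 14.2%. Those in both were YY1, a transcription factor, the Sm protein genes SNRPD3 and SNRPE, and ZNF473, a U7 snRNP-associated zinc finger protein. Those in KMT2D-KD alone included the H4 promoter-binding factor HINFP at 910 bases (25423 in NC), the U7 Sm-like proteins LSM10 at 261 bases (2733) and LSM11 at 1033 bases (127219), the histone locus body protein CASP8AP2 at 1413 bases (14374), and SYMPK, CPSF1, CPSF3, ERI1 and SNRPG. At SNRPG the 2 kb limit decided this, with intervals at 1941 bases in KMT2D-KD and 2054 in NC. NPAT, the coactivator of the S-phase programme, lay just outside at 2300 bases in KMT2D-KD and 98419 in NC, as did E2F1 at 2101 in KMT2D-KD and 2640 in NC. Others lay just outside in NC, POU2F1 at 2234 bases (23830 in KMT2D-KD) and CPSF2 at 2342 bases (31840 in KMT2D-KD). SLBP, the stem-loop binding protein, had none within 10 kb in either. Among 11 histone chaperone genes, 6 had one in NC (ASF1B, CHAF1A, DAXX, NASP, SSRP1 and SUPT6H) and 5 in KMT2D-KD, the same without CHAF1A. With 1 library per condition none of these differences was tested.

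**Figure D5:**
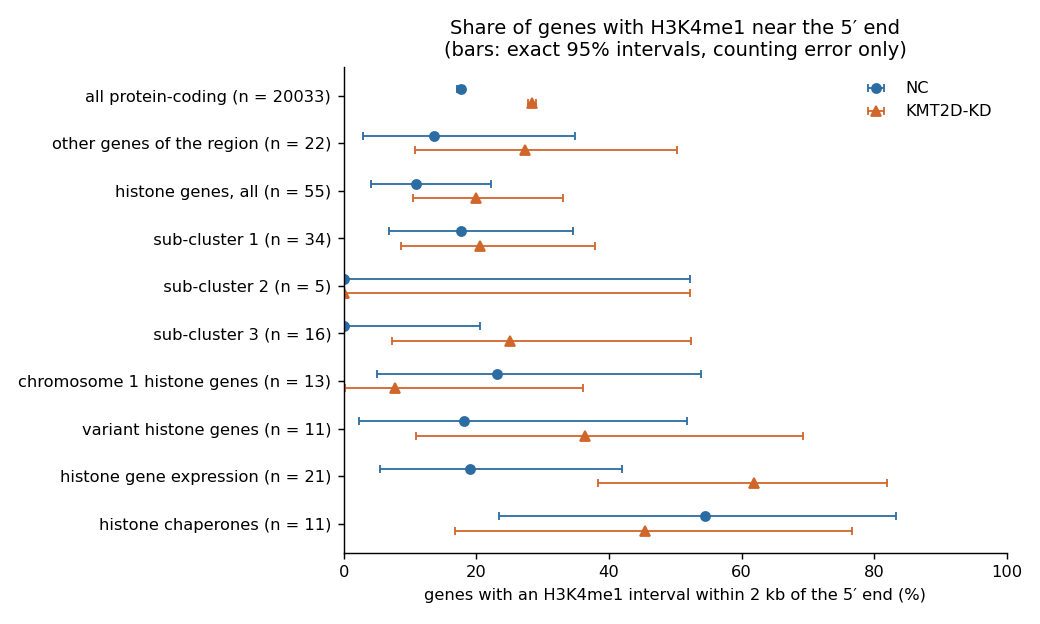
Percent of genes with an H3K4me1 interval within 2 kb of the 5′ end in NC (circles) and KMT2D-KD (triangles) for all protein-coding genes, the histone genes and their sub-clusters, and comparison lists, with exact 95% intervals for counting error only. The intervals of the 55 histone genes, around 10.9% and 20%, include the values of all genes, 17.7% and 28.4%, and the sub-cluster 3 values are 0% in NC and 25% in KMT2D-KD.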

How the data were processed

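Per the labels, H3K4me1, KMT2D and EBF2 were profiled in NC and KMT2D-KD SW1990 cells, 7 samples in all with the input. The authors removed reads with adapters or low quality and aligned the rest. The submitters' processing notes name BWA, MACS2, HOMER and hg38, and versions and settings are not given in the sources used here. Each of the 6 deposited lists holds the intervals of 1 library called against the input. The deposited values used were the fold enrichment, a ratio, and the −log10 p and −log10 q of each interval, all the authors' own. The score column the authors deposited, 10 times −log10 q rounded down, was not used.

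Intervals were set against GENCODE release 44 gene records, counted from 1, with distance measured from the record's 5′ end to the nearest interval base and at least 1 base of overlap with the window required. Fragments and background were recovered by solving fold enrichment and −log10 p for whole fragment numbers within a tolerance of 0.001, which succeeded for 64813 of 64843 NC and 92115 of 92135 KMT2D-KD intervals. For this, fold enrichment was taken as fragments plus 1 over background plus 1. Distances and recovery were tested on simulated data. Shares carry exact (Clopper-Pearson) 95% intervals for counting error only. No p-value was computed. Python 3.11.15, pandas 2.3.3 and scipy 1.17.1 were used. The sequences came from hg38 and RefSeq promoters.

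The members, the gene lists and the windows were chosen with earlier results of these data known. Values were given in full for each member with an interval within 2 kb in either list, and also for the 5 members farthest from any interval and the 5 intervals of highest −log10 q in each list. H4-16, on the list of variant histone genes, had no protein-coding match in the annotation used.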

Additional observations from a re-analysis of the deposited data

How the results depend on the processing

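Of 33 alternatives, 20 kept a value inside its counting interval (a count inside 1.5 times its size), 13 moved it and 0 reversed a direction. The number of histone genes with H3K4me1 near the 5′ end (6 in NC, 11 in KMT2D-KD) was 3 and 4 within 1 kb, 22 and 34 within 5 kb, and 1 and 2 at a −log10 q of 5 or more. A narrower or wider window and a stricter threshold lower or raise these counts by construction. When the longer list was trimmed to the strongest 64843 intervals, KMT2D-KD had 8, and with divergent pairs counted once also 8. The 5′ end of the canonical transcript, an alternative chosen after seeing the data, gave 6 and 11. In KMT2D-KD the 11 were not the same genes, as H4C8 (1963 bases) took the place of H2BC6 (12543 bases). Covered bases of the region (0.535% and 1.10%) were 0.121% and 0.184% at that threshold, 1.03% and 2.52% in the sub-clusters alone, and 0.828% in KMT2D-KD with equal numbers. The share of intervals found in the other list was 76.5% of NC and 51.7% of KMT2D-KD within 1000 bases, higher by construction. The log2 ratio of 0.82 stayed above 0 in the alternatives, but its counting interval included 0 with equal numbers (0.20, −0.50 to 0.91), after merging within 1000 bases (0.58, −0.11 to 1.30) and at a −log10 q or fold enrichment of 5 or more (0.81, −1.17 to 3.03). The rule for sub-clusters gave 3 of them. No paired analysis was possible because each condition had 1 library per antibody and the replicate number only names it. Summits of 7 to 17 fragments limit all of these values.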
